A study of Mus musculus with 4 samples.

Results

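A set of 33 germline genes was followed in mouse marrow stroma, as mesenchymal stem/progenitor cells in culture, a cell type able to give rise to bone, cartilage and fat. The genes were picked by name as genes of meiosis, of transposon control and of germ cell identity, and each name matched a single row of the table, so 33 of 41029 genes are described. They were chosen with earlier results of these data known, so tests of them are not independent of that choice. The libraries are 2 labelled Tet2-/- and 2 labelled wild type, all from C57BL/6 mice and grown in MesenCult medium, passaged before confluence and lysed after trypsin release. The labels give neither the Tet2 allele, the age or sex of the mice, the passage number nor whether the replicates are separate animals, so p-values measure the spread between these libraries, which may be technical.

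Genes of this kind are active in sperm and egg precursors and shut in body cells. Many have promoters with a fair density of CpG, the cytosine-guanine pair that DNA methyltransferases modify, and in the early embryo these promoters gain methylation that keeps the gene off. A Polycomb complex holding PCGF6, L3MBTL2, E2F6, MGA and MAX also represses them, through E2F motifs and E-boxes. TET enzymes such as TET2 oxidise methylated cytosine, a step towards its removal. DNA methylation itself was not among the values analysed here, which are RNA levels in FPKM, in which a gene's read count is divided by gene length and by the library's depth.

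The promoters below show the sequence context of the genes the results turn on, 250 bases up to a gene start of RefSeq on build GRCm38.p6. Capitals mark each CpG. Sycp1 had many reads in the Tet2-/- libraries alone, Nanos3 had its few reads there, Brdt was transcribed in every library, Mael had no read and Slc25a31 hardly any. They lie at chr3:102936101-102936350 (minus strand), chr8:84176553-84176802 (minus), chr5:107330944-107331193 (plus), chr1:166238745-166238994 (minus) and chr3:40708621-40708870 (plus).
Sycp1: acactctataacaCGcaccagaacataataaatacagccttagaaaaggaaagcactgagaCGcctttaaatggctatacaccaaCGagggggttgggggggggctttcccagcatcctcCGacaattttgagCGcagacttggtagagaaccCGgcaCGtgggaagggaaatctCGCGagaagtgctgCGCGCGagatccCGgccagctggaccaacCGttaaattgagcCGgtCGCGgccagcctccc
Nanos3: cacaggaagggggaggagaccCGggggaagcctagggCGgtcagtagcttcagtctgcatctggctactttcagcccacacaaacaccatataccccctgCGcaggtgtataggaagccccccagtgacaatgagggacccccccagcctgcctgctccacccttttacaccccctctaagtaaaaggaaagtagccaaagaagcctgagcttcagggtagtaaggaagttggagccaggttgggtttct
Brdt: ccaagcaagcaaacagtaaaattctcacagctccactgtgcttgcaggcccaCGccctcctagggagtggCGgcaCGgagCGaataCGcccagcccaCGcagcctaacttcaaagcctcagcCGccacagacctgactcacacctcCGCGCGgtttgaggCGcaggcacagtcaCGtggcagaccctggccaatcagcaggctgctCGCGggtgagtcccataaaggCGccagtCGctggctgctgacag
Mael: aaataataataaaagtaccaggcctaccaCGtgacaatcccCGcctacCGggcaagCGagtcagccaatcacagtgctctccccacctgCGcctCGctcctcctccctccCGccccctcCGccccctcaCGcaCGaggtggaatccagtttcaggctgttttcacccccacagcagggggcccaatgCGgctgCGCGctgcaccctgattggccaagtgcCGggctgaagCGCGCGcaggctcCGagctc
Slc25a31: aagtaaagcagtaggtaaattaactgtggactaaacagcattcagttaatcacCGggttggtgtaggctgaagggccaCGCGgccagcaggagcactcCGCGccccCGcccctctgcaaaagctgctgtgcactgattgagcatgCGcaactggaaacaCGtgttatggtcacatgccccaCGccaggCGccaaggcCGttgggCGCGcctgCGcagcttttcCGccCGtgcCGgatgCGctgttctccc
These windows hold 17 CpG in Sycp1, 3 in Nanos3, 16 in Brdt, 18 in Mael and 18 in Slc25a31. The E-box CACGTG starts 94 bases before the gene start in Sycp1, 93 in Slc25a31, 78 in Brdt and 223 in Mael, and is not in the Nanos3 window. The Nanos3 window precedes a downstream start, 8665 bases inside the gene as GENCODE M21 annotates it, at which 2 of its 3 transcripts start.

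The libraries held 15847340 and 21337246 reads over genes in Tet2-/- 1 and 2, and 10096878 and 17778152 in wild type 1 and 2. Tet2 stood at 11.6 and 9.70 FPKM in the libraries labelled Tet2-/-, against 7.01 and 8.39 FPKM in wild type, so the gene total did not show its loss (log2 difference 0.42, adjusted p = 0.329, limma). Directions below are therefore differences between libraries so labelled. All 10 stromal marker genes looked up, such as Pdgfrb and Col1a1, were at 1 FPKM or more in some library, though not all in every library. Their summed level was 6536 and 25383 FPKM in the Tet2-/- libraries and 13106 and 12554 in wild type, mostly from Col1a1 and Col1a2. Single markers differed between the Tet2-/- libraries. Lum stood at 0.152 and 101 FPKM in Tet2-/- 1 and 2 and 16.1 and 17.7 in wild type. Thy1 went the other way, at 131 and 8.27 FPKM in Tet2-/- and 14.9 and 16.0 in wild type. Replicates lay further apart in the Tet2-/- libraries, with a median absolute difference of 0.35 on the log2(FPKM + 1) scale over the 12344 genes tested, against 0.082 in wild type.

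Of the 33 germline genes, 18 stayed under 0.1 FPKM in every library and are called silent, 11 lay between, and 4 reached 1 FPKM in at least 1 library and are called transcribed. Silent genes were 31.2% and transcribed genes 55.6% of the 21637 protein-coding genes in the table, beside 54.5% and 12.1% of the germline genes. Over all 41029 genes, 48.3% were silent and 32.5% transcribed. The silent count rests on its limit and was 12 of 33 with the limit 2 times lower and 25 with it 2 times higher. Gene length, depth and single reads also bear on the split. Rhox5, at 694 bases, lay between with 2 and 2 reads in Tet2-/- and 0 and 1 in wild type. Syce1 is called silent with no read, where 3 reads would be 0.342 FPKM in wild type 1 at an assumed 870 bases. In bulk libraries, few cells with much RNA and many cells with little cannot be told apart. In wild type 3 germline genes stood at 1 FPKM or more in each library, namely Tex15, Brdt and Zcwpw1, so for these the label of silenced genes goes against the data. Sycp1 made a 4th in both Tet2-/- libraries.

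**Figure D1:**
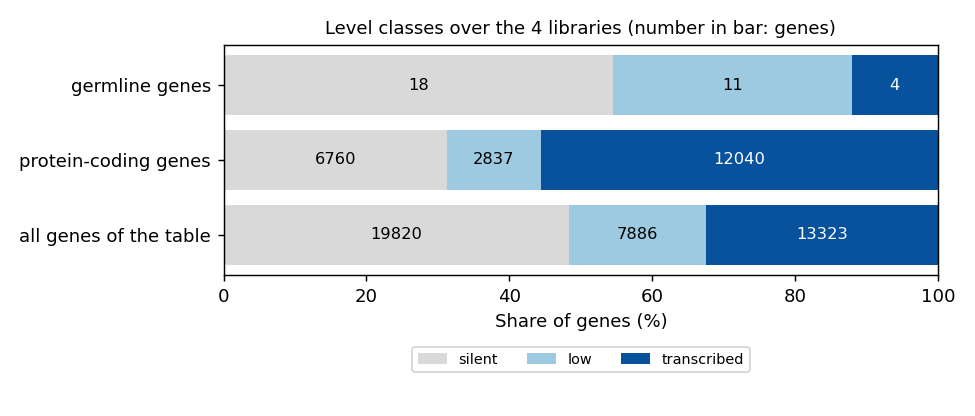
Share of genes (horizontal axis, %) that were silent (under 0.1 FPKM in every library), low, or transcribed (at least 1 FPKM in at least 1 library), with the number of genes in each bar. The germline genes have 18 silent and 4 transcribed members, a larger silent share (54.5%) than protein-coding genes (31.2%).

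No read was counted in any library for 22.4% of protein-coding genes and 38.3% of all genes, beside 7 of the germline genes (21.2%). These were Syce1, a central element protein of the synaptonemal complex that zips paired chromosomes together; Mael, Asz1, Mov10l1 and Stk31, of which the first 3 act in the piRNA pathway against transposons; Tex101, a sperm cell surface protein; and Tuba3a, an alpha-tubulin of testis. Tuba3a has a near-identical copy, Tuba3b, also listed at 0, and reads shared by such copies may have been dropped in counting, so its 0 is uncertain. A count of 0 allows up to 3 reads. For Mael that is up to 0.117 and 0.0869 FPKM in Tet2-/- 1 and 2 and 0.184 and 0.104 FPKM in wild type 1 and 2, at its mean transcript length of 1618 bases. A count of 0 does not exclude levels below these, and the limits cover counting error only.

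The other 11 silent genes had between 1 and 4 reads over all 4 libraries together. Among them were Dazl, an RNA-binding protein that germ cells depend on, with 3 reads in Tet2-/- 1 and none elsewhere, and Spo11, the enzyme that cuts DNA to start meiotic recombination, with 1 read in Tet2-/- 1. Dmc1, the meiotic strand-exchange protein, had 1 read in wild type 1, 3 in wild type 2 and none in the Tet2-/- libraries. Slc25a31, an ADP/ATP carrier of germ cells, had 2 reads in Tet2-/- 1, none in Tet2-/- 2 and 1 in each wild-type library. Hormad1, a meiotic axis protein, Piwil1, a piRNA-binding protein, Stra8, which starts meiosis, and Dppa3, an egg and germ cell protein, had 1 read each. Tex11, an X-linked crossover factor, had 2, and Rec8, the meiotic cohesin, and Dpep3, a membrane dipeptidase of testis, had 4 each. Without a filter on low values none of the 11 passed, with limma or with voom on the reads. Dmc1 had an unadjusted p of 0.016 (voom) and an adjusted p of 0.372. Reads are given as worked out from the FPKM values, and for Dazl, Rec8, Dmc1, Dpep3, Ddx4, Smc1b, Piwil2 and Nanos3 they are lower bounds.

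**Figure D2:**
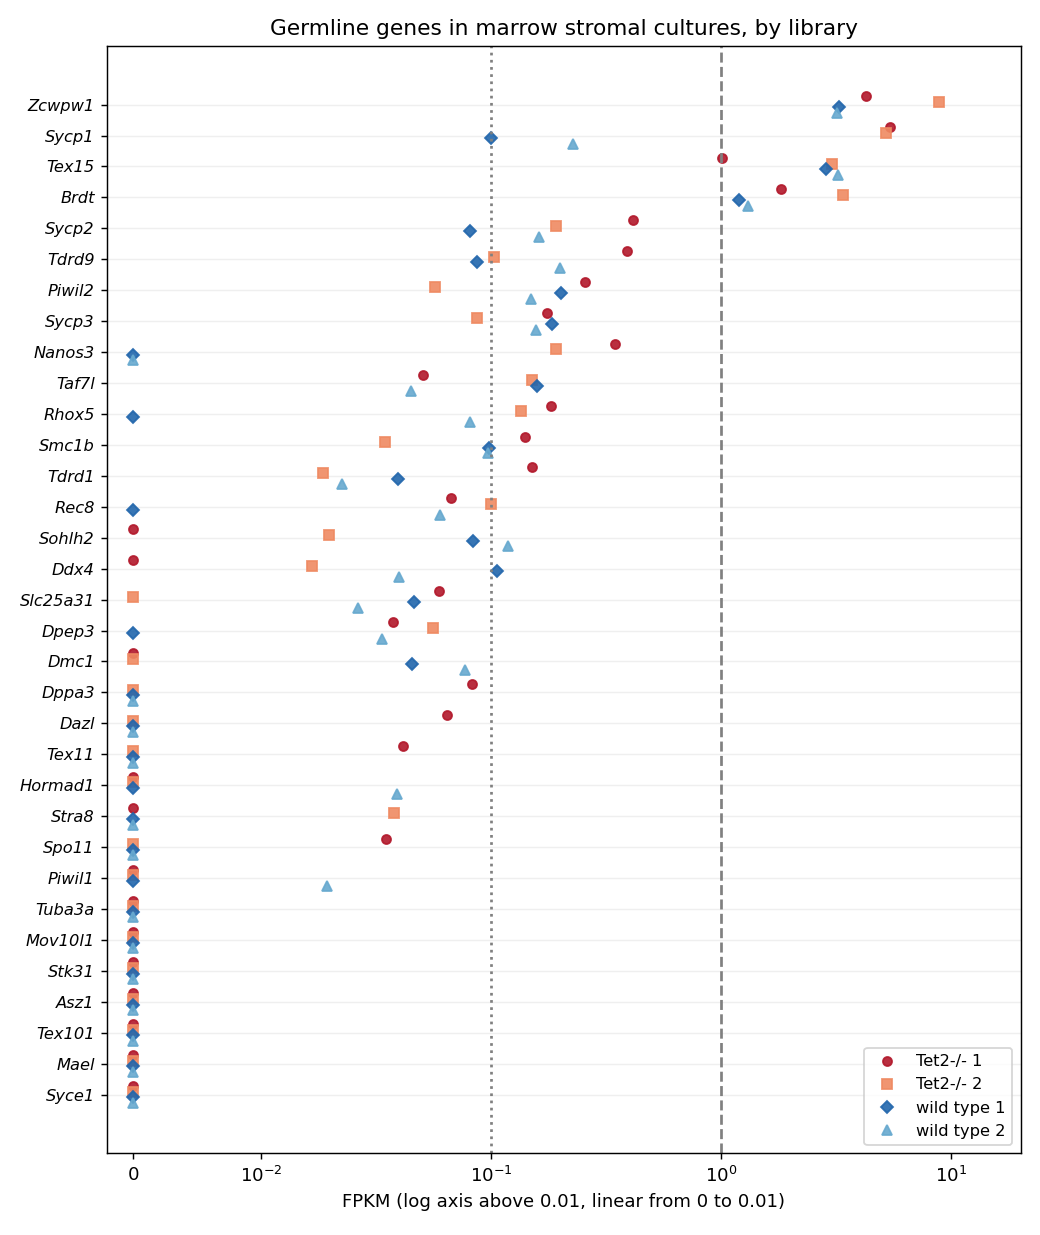
FPKM of each germline gene (rows) in each library (points), on an axis that is logarithmic above 0.01 and linear below it; the dotted line marks 0.1 and the dashed line 1 FPKM. Only Zcwpw1, Sycp1, Tex15 and Brdt reach the dashed line, and 7 genes lie at 0 throughout.

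Sycp1 had the largest gap between the groups, in a set chosen with earlier results of these data known. It encodes the transverse filament protein of the synaptonemal complex, which bridges paired chromosomes in meiosis. Sycp1 stood at 5.43 and 5.22 FPKM in the Tet2-/- libraries, from 170 and 220 reads, against 0.1003 and 0.228 FPKM in wild type, from 2 and 8 reads. Both Tet2-/- values lay far above both wild-type values and close to each other, and the 95% counting intervals (exact Poisson) were 4.65 to 6.31 and 4.55 to 5.96 FPKM in the Tet2-/- libraries, against 0.0121 to 0.362 and 0.0984 to 0.449 in wild type. Pooled over libraries this is 10.5 RPM (reads divided by depth alone, not by gene length) in Tet2-/- against 0.359 RPM in wild type, a 29.2-fold ratio with a 95% counting interval of 15.7 to 61.5 that leaves out the spread between replicates. On the log2(FPKM + 1) scale the difference was 2.44 (SE 0.20), and it did not pass over all 12344 genes (adjusted p = 0.125, limma). That test covers genes averaging 1 FPKM or more, which Sycp1 reaches through the Tet2-/- libraries alone. Without Tet2-/- 1 or Tet2-/- 2, where the spread comes from wild type alone, Sycp1 passed (adjusted p = 3.46e-05 and 7.57e-05, limma), but so did 60.1% and 46.5% of all genes. Without wild type 1 or 2 it did not (adjusted p = 0.9995 and 0.9999), nor did any other gene, with 274 and 312 at an unadjusted p under 0.05.

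The Sycp1 gene (ENSMUSG00000027855) spans bases 102818499 to 102936100 of chromosome 3 in GRCm38, minus strand. Its nearest neighbours at 1 FPKM or more did not share its gap. Tspan2, a tetraspanin gene 16986 bases away, stood at 9.01 and 7.07 FPKM in the Tet2-/- libraries, against 6.71 and 6.83 in wild type. On the other side Sike1, a suppressor of antiviral signalling 59608 bases away, stood at 14.3 and 23.6 FPKM in Tet2-/-, against 17.6 and 17.8 in wild type. Tet2 is on the same chromosome, 30.5 Mb further on. Of 1036 genes of chromosome 3 with a mean of at least 0.1 FPKM, 2.61% were at least 2-fold higher in every pair of a Tet2-/- and a wild-type library, beside 2.29% over all chromosomes. The authors' gene length of 1975 bases is the mean of 4 annotated transcripts of 608 to 3437 bases, so the Sycp1 level would be 1.74 times lower if its reads came from the longest one; a gene total cannot show which.

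The other synaptonemal genes stayed low. Sycp2, a protein of the chromosome axis, stood at 0.415 and 0.193 FPKM in the Tet2-/- libraries, from 16 and 10 reads, against 0.0814 and 0.162 FPKM in wild type, from 2 and 7 reads. The Sycp2 groups do not overlap, though the lower Tet2-/- value is near the higher wild-type one. Sycp3, its partner on the axis, had 3 and 2 reads in Tet2-/- and 2 and 3 in wild type, and it overlaps the opposite-strand gene Chpt1, which stood at 35.5 to 40.7 FPKM. Whether counting used strand is not given in the sources used here, so reads of the pair cannot be told apart.

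Of the genes for meiotic entry, axis, cohesin and recombination, 2 of 9 were transcribed and 6 silent. Zcwpw1, a reader of histone methylation at recombination sites, was the highest of all 33 genes on average. Zcwpw1 stood at 4.26 and 8.87 FPKM in the Tet2-/- libraries, against 3.24 and 3.196 FPKM in wild type. The groups do not overlap, but Tet2-/- 2 stands well above the other 3 libraries, and the difference did not pass (log2 0.77, SE 0.36, adjusted p = 0.354, limma). Zcwpw1 starts 143 bases from the opposite-strand gene Mepce, a capping enzyme of a small nuclear RNA, which stood at 27.1 to 29.2 FPKM in all 4 libraries. It also overlaps Pilra, an immune receptor gene on the opposite strand. Pilra stood at 10.6 and 1.44 FPKM in Tet2-/- 1 and 2 and 1.93 and 1.57 in wild type 1 and 2. As strand use in counting is not given, reads of Zcwpw1 and Pilra cannot be told apart where they overlap.

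Tex15, needed for repair of meiotic breaks and for transposon silencing in male germ cells, stood at 1.01 and 3.03 FPKM in the Tet2-/- libraries, against 2.87 and 3.21 FPKM in wild type. Its groups overlap: Tet2-/- 1, with 63 reads, was low, and Tet2-/- 2, with 255, was like wild type (log2 -0.50, SE 0.40, adjusted p = 0.551, limma). Smc1b, a meiotic cohesin subunit, was the 1 gene of this group between the classes, at 0.141 and 0.0348 FPKM in Tet2-/- and 0.0981 and 0.0975 in wild type.

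**Figure D3:**
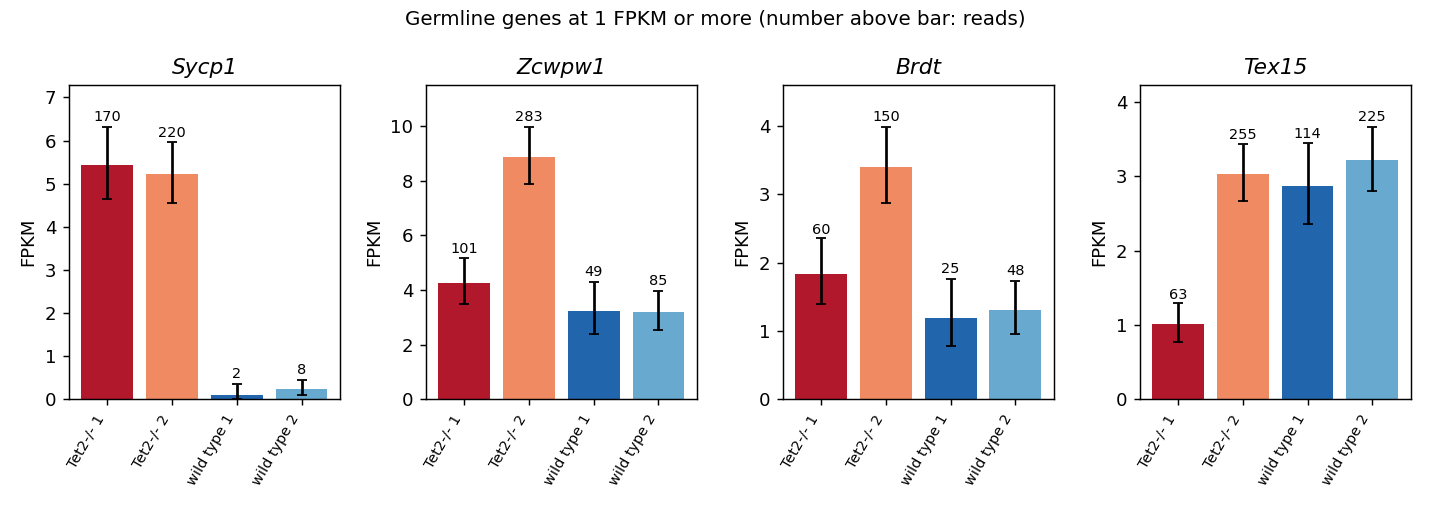
FPKM (vertical axis, linear) of the 4 germline genes that reached 1 FPKM, by library; error bars are 95% Poisson counting intervals and the numbers are reads. Sycp1 is high in both Tet2-/- libraries and near 0 in wild type, whereas Zcwpw1, Brdt and Tex15 are above 1 FPKM in wild type too.

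Among 7 regulators of germ cell genes, Brdt was transcribed. It encodes a bromodomain protein of spermatocytes that binds acetylated histones. Brdt stood at 1.83 and 3.39 FPKM in the Tet2-/- libraries, against 1.19 and 1.30 FPKM in wild type, from 60 and 150 reads against 25 and 48. The groups do not overlap, with Tet2-/- 2 the highest, and the difference did not pass (log2 0.65, SE 0.29, adjusted p = 0.349, limma). Nanos3, which keeps primordial germ cells alive, had 4 and 3 reads in the Tet2-/- libraries, at 0.346 and 0.193 FPKM, and no read in wild type, where 3 reads would be 0.407 and 0.231 FPKM. At the 730 bases assumed, both Nanos3 values in Tet2-/- lie under what the 0 in wild type 1 allows. Tet2-/- 2 also lies under what the 0 in wild type 2 allows. The reads are lower bounds, so the length may be longer and these limits lower. The longest annotated Nanos3 transcript, however, also has 730 bases. Without a filter on low values the difference did not pass for Nanos3 (log2 0.34, SE 0.080, adjusted p = 0.334, limma).

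The remaining regulators were at a few reads. Rhox5, an X-linked homeobox gene, had 2 and 2 reads in Tet2-/-, against 0 and 1 in wild type. Taf7l, a germ cell form of a general transcription factor subunit, had 1 and 4 reads in Tet2-/- and 2 and 1 in wild type. Sohlh2, a transcription factor of early germ cells, had 0 and 1 reads in Tet2-/- and 2 and 5 in wild type.

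None of the 9 genes of the piRNA and transposon group was transcribed. Piwil2, which binds piRNAs, stood at 0.257 and 0.0572 FPKM in the Tet2-/- libraries and 0.202 and 0.149 FPKM in wild type. Tdrd9, a helicase of the pathway, stood at 0.390 and 0.103 FPKM in Tet2-/- and 0.0874 and 0.199 FPKM in wild type, and Tdrd1, a scaffold protein, at 0.151 and 0.0187 in Tet2-/- and 0.0395 and 0.0225 in wild type. All 3 were higher in Tet2-/- 1 than in any other library and lowest or near lowest in Tet2-/- 2, and their groups overlap. Ddx4, the vasa helicase of germ cells, had 0 and 1 reads in Tet2-/- and 3 and 2 in wild type.

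Over the whole set, the Tet2-/- libraries held 30.7 and 44.6 RPM in the germline genes and wild type 21.9 and 23.8 RPM. Without the 4 transcribed genes this was 5.81 and 2.06 RPM in Tet2-/- and 3.07 and 3.21 in wild type, so the 29 others overlapped between the groups. Of the 26 genes with a read, 8 had both Tet2-/- values above both wild-type values (30.8%), where 23.5% of the 25309 genes above 0 did, and 3 lay below both (11.5%), where 18.0% did. Those above were Sycp1, Sycp2, Zcwpw1, Rec8, Brdt, Nanos3, Rhox5 and Dpep3, and those below Ddx4, Dmc1 and Sohlh2. These shares are near the background.

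At a mean of at least 0.1 FPKM, which 10 germline genes reached, Sycp1 and Nanos3 were at least 2-fold higher in every pair on the log2(FPKM + 0.1) scale, and none was lower. The background was 2.29% higher and 1.93% lower of 18218 genes. Nanos3 reaches that mean only through the Tet2-/- libraries, whereas Sycp1 averaged 0.164 FPKM in wild type. Of the 4 germline genes tested by limma none passed, beside 0.0162% (2 genes) of the 12344 tested, 0.00810% in each direction; 1 of the 4, Sycp1, had an unadjusted p under 0.05, beside 17.1% of all. With voom on the reads and no filter, none of 26 passed. An unadjusted p under 0.05 (voom) was found for 4 of the 26, beside 10.7% of all 25309 genes. Sycp1 and Nanos3 were higher and Dmc1 and Sohlh2 lower in Tet2-/-.

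Promoters of the germline genes differed from the bulk in their sequence. RefSeq promoters were found for 28 of the 33 genes, 33 windows in all, each of 300 bases with 50 past the start; Tex11, Tex15, Piwil2, Spo11 and Dppa3 had none. The median was 18 CpG per window, against 7 over all 32851 promoters, and 30 of 33 windows held at least 10, as did 43.5% of all. By window, silent genes had a median of 19 CpG, low genes 16 and transcribed genes 22, and the classes overlapped. The transcribed median rests on 4 windows of 3 genes, as Tex15 had none. Those with fewest were the downstream starts of Nanos3 and Tdrd1, with 3 each, and Rhox5 with 5. The RefSeq starts lay over 1000 bases inside the GENCODE gene in 4 windows, of Nanos3, Tdrd1, Tex101 and Piwil1, and far upstream of it in Rhox5, so these may not be the starts of the transcripts counted.

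The E-box CACGTG was in the windows of 13 of 28 germline genes (46.4%), against 8.09% of all 27025 genes of the promoter table. The E2F motif GCGGGA, on either strand, was in those of 10 (35.7%), against 22.0%. Both motifs contain a CpG, of which germline windows held more (median 18, against 7 over all promoters). A background matched for CpG number was not tested. Within the set the E-box was in 8 of 17 windows of silent genes, 6 of 12 of low genes and 2 of 4 of transcribed genes. Windows of the same gene can overlap and share an E-box, as in Hormad1, Stk31 and Tdrd1, so these counts are not independent. Both motifs stood in windows of Sycp1, Sycp3, Mael, Ddx4, Slc25a31 and Hormad1. A letter match is not evidence of binding.

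**Figure D4:**
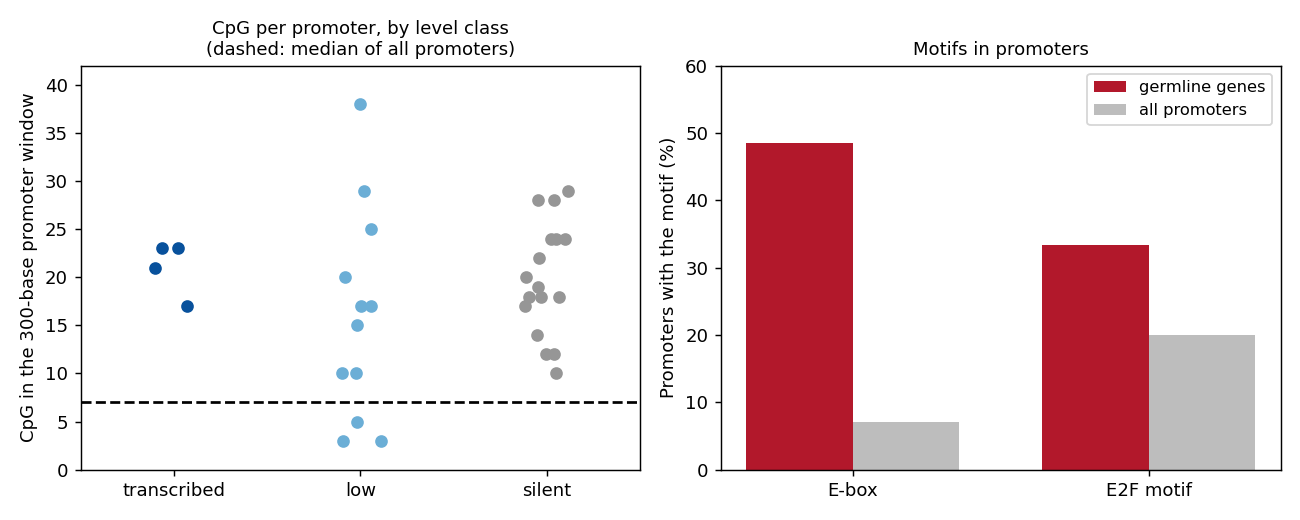
Left, CpG number per 300-base promoter window (vertical axis) of germline genes by level class, with the median of all promoters (7) dashed; right, share of promoters (%) with the E-box or the E2F motif in germline genes (48.5% and 33.3% of windows) and in all promoters (7.15% and 20.0%). The level classes overlap in CpG number.

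Other germline genes, from a list of 43 of which 42 are in the table, were spread likewise, with 26 silent, 7 low and 9 transcribed. None of the 7 tested passed (smallest adjusted p = 0.314, limma). Syce2, a central element gene of the synaptonemal complex, stood at 10.5 and 5.48 FPKM in the Tet2-/- libraries and 5.26 and 5.86 in wild type. Psmc3ip, which assists meiotic recombination, stood at 4.86 and 6.63 FPKM in Tet2-/- and 6.86 and 5.38 in wild type, and Tdrkh, a piRNA-pathway protein, at 6.66 and 5.96 in Tet2-/- and 4.38 and 5.34 in wild type. Tex12, the central element partner of Syce2, was the 1 gene of this list at least 2-fold higher in every pair. It had 1 and 6 reads in Tet2-/-, which are lower bounds, and none in wild type. Tex12 thus entered that count through the Tet2-/- libraries alone. Stag3, a meiotic cohesin gene chosen after its values were seen, stood at 11.4 FPKM in Tet2-/- 1, 0.324 in Tet2-/- 2, and 0.685 and 0.778 in wild type.

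Genes of late sperm cells were near 0. Of 15 haploid sperm genes 10 were silent, 5 low and none transcribed, with a summed level of 1.49 and 0.899 FPKM in the Tet2-/- libraries and 0.567 and 0.776 in wild type, and Prm3, Tnp1, Pgk2, Akap4, Spata18 and Catsper1 were at 0 throughout. The most abundant were Tssk6, a sperm kinase, at 0.614 and 0.316 FPKM in Tet2-/- and 0.223 and 0.253 in wild type, Gapdhs, a sperm glycolytic enzyme, at 0.541 and 0.402 in Tet2-/- and 0.255 and 0.193 in wild type, and Crisp2, with 3 and 1 reads in Tet2-/- and none in wild type. The sum was higher in Tet2-/- 1 and 2 than in wild type, as Sycp1 was, and its part in the Sycp1 gap was not tested.

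RNA of the machinery that represses germline genes was present. All 21 repressor genes listed were transcribed, and none passed the test (smallest adjusted p = 0.224, limma), with a median log2 difference of 0.14 beside 0.03 over all tested genes. In 8 of the 21 both Tet2-/- values lay above both wild-type values, beside 29.4% of all tested genes. In 3 both lay below, beside 24.8%. Trim28, a co-repressor, stood at 312 and 164 FPKM in the Tet2-/- libraries and 314 and 280 in wild type, and Cbx3, a heterochromatin protein, at 136 and 150.0 in Tet2-/- and 131 and 138 in wild type. Hdac2, a histone deacetylase, stood at 115 and 106 FPKM in Tet2-/- and 118 and 124 in wild type. Of 9 methylation and demethylation enzymes 8 were transcribed and none of 6 tested passed (smallest adjusted p = 0.329, limma). Uhrf1, which guides maintenance methylation, stood at 54.4 and 39.4 FPKM in Tet2-/- and 43.7 and 41.5 in wild type, Dnmt1, the maintenance methyltransferase, at 34.1 and 22.8 in Tet2-/- and 21.2 and 21.3 in wild type, and Tdg, which excises oxidised methylcytosine, at 13.9 and 20.2 in Tet2-/- and 14.0 and 15.3 in wild type.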

How the data were processed

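RNA was sequenced from 4 libraries. Per the submitters' processing notes, Bowtie2 2.2.3, TopHat2 2.0.12, HTSeq 0.6.1 and build mm10 were used. The authors deposited FPKM per gene, with the gene lengths not stated. The values proved to be exact quotients, from which the total and the reads of each gene were worked out, whole to within 1e-06 of a read (a relative bound for high counts), for all 25309 genes above 0. For 75.6% of these the length equals the mean length of the gene's annotated transcripts within 1 base, as for 18 of the 26 germline genes with reads; for the other 8 the reads are lower bounds.

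Names and positions came from GENCODE M21 (GRCm38, which is mm10), holding 40535 of the IDs. Differences were tested with limma (version 3.58.1, R 4.3.3) with a mean-variance trend on values of log2(FPKM + 1) where a gene averaged 1 FPKM or more, two-sided, Benjamini-Hochberg adjusted over 12344 genes, threshold 0.05. An exact permutation test of 2 against 2 cannot go below p = 0.3333. Differences are Tet2-/- minus wild type. By the rule for named genes, values in every library are given for germline genes of the set that reached 1 FPKM or were at least 2-fold apart in every pair, and for the 3 most abundant of each further list. Values of Sycp2, Smc1b, Piwil2, Tdrd9, Tdrd1, Tex12, Stag3, Lum, Thy1 and the macrophage genes were added after they were seen. The members and lists were chosen with earlier results of these data known.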

Additional observations from a re-analysis of the deposited data

How the results depend on the processing

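None of the 4 tested germline genes changed direction under any setting that tested them, and with all 4 libraries none passed; a filter at a mean of 5 FPKM left none to test. For Sycp1 the log2 difference was 4.40 and 5.04 with a pseudocount of 0.1 and 0.01, and the adjusted p over its settings with 4 libraries ran from 0.112 (voom on reads, no filter, chosen after seeing the data) to 0.381 (replicate block, limma). Leaving out 1 library gave Sycp1 2.36 to 2.52, Tex15 -1.01 to -0.00070, Brdt 0.33 to 0.97 and Zcwpw1 0.32 to 1.23. Without Tet2-/- 1 or 2, where the lone library is assumed to vary like wild type, Sycp1 passed (adjusted p = 3.46e-05 and 7.57e-05, limma). Brdt and Zcwpw1 passed only without Tet2-/- 1 (0.00141 and 0.000134) and Tex15 only without Tet2-/- 2 (0.00184). In these fits 60.1% and 46.5% of all genes passed, so the calls are near the background. Without wild type 1 or 2 the adjusted p of all 4 was 0.9995 and 0.9999.

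Over all genes 2 passed, against 1 with a pseudocount of 0.1 or 0.01 and 0 with voom on reads (2044 at an unadjusted p under 0.05) or with the replicate block (1328 such genes). Leaving out 1 library gave 0 to 7415, with 274 and 312 at an unadjusted p under 0.05 where a wild-type library was left out. Deviations of same-numbered replicates hardly correlated across genes (0.0061). With the Tet2-/- replicates so much further apart, this cannot settle whether the samples were paired. The germline genes 2-fold higher in every pair numbered 1 (Sycp1) with a pseudocount of 1 and 2 to 4 with a library left out, and those lower 0 to 1; Brdt and Zcwpw1 joined without Tet2-/- 1, and Tex15 was lower without Tet2-/- 2. With the limits 2 times lower or higher the silent genes numbered 12 and 25 and the transcribed genes 4 and 4.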

Other observations

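Marker genes of other cell types were read beside the germline set. Of 10 genes of Sertoli cells and other testis somatic cells, Sox9 stood at 7.37 and 1.11 FPKM in the Tet2-/- libraries and 4.07 and 4.38 in wild type and Inha at 3.55 and 2.13 in Tet2-/- and 3.09 and 3.24 in wild type, while the other 8 stayed under 1 FPKM and Fshr was at 0. Stromal cells also use Sox9. Rhox8, a homeobox gene of Sertoli cells, was at least 2-fold higher in every pair, at 0.367 and 0.623 FPKM in Tet2-/- and 0.0823 and 0 in wild type, and it entered that count only through its Tet2-/- values. Of 8 macrophage and blood genes 7 were transcribed, with a summed level of 61.3 and 100.5 FPKM in Tet2-/- and 93.2 and 88.0 in wild type, of which Lyz2 made up 36.9 and 66.7 FPKM in Tet2-/- and 65.9 and 63.0 in wild type. Ptprc, Adgre1, Csf1r and Tyrobp had both Tet2-/- values above both wild-type values, as Sycp1 did, and Cd68 below, so 4 of 7 tested were above, beside 29.4% of all tested genes. None of the 7 passed (smallest adjusted p = 0.336, limma), and their part in the Sycp1 gap was not tested. The 5 endothelial genes were all under 1 FPKM, with sums of 0.864 and 0.181 FPKM in Tet2-/- and 0.203 and 0.210 in wild type. The 5 osteoblast genes summed to 10.8 and 1223 FPKM in Tet2-/- 1 and 2 and 17.8 and 17.6 in wild type, a split between the Tet2-/- libraries that Sycp1 did not share.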
